A study of Mus musculus with 21 samples.

Results

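A set of 9 regulators was followed here through the transcriptome of the mouse gamete and preimplantation embryo, chosen by name as genes that hold the oocyte in meiotic arrest or run the meiotic and mitotic spindle. They are Mos, Wee2, Fbxo43, Cdc25b, Bub1b, Cdc20, Aurkc, Aurka and Plk1. A transcript of the merged long-read annotation was given to a gene by exon overlap on the same strand with GENCODE vM21, and the gene value is the sum of the TPM (a length-corrected abundance, relative to the library total) of its transcripts. Of the 9 genes, 8 had at least 1 merged transcript, 15 transcripts in all. The annotation as a whole held 22612 transcripts, of which 18333 overlapped an annotated gene on the same strand. It covered 10920 annotated genes, or 14888 genes and loci when unannotated loci are counted.

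A mature oocyte waits in the second meiotic metaphase until sperm entry. The Mos kinase drives the MAP kinase pathway and the Fbxo43 protein, also called Emi2, holds back the anaphase-promoting complex (APC/C), the ubiquitin ligase that ends metaphase, while Wee2 and the Cdc25 phosphatases set the inhibitory phosphorylation of the cyclin-dependent kinase Cdk1. Cdc20 activates the APC/C, Bub1b restrains Cdc20 at the spindle checkpoint, and the kinases Aurka, Aurkc and Plk1 act on spindle poles, kinetochores and chromosome arms. Oocytes store many of these mRNAs, lengthen or shorten their poly(A) tails in the cytoplasm, and degrade much of the store before the embryonic genome takes over.

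Short-read libraries were made in duplicate for 7 stages, 14 in all, from amplified Smart-seq2 cDNA of pooled cells. Sperm came from the epididymis of DBA/2J males (the protocol text writes DBA/2N) and metaphase II oocytes from C57/BL6J females of 3 to 5 weeks, superovulated with PMSG and hCG and collected 20 hours after hCG. Embryos came from such females mated to those males and were cultured in KSOM to the 1-cell (24 to 26 hours after hCG), 2-cell (46 to 48), 4-cell (54 to 58), 8-cell (68 to 70) and blastocyst (94 to 96) stages. Long reads were from 1 pool of 2 batches for each stage, so the structures have no replicates.

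The stage labels were checked against marker genes. The summed TPM of 6 oocyte markers was 5063 and 16143 in the oocyte libraries and at most 9.86 in sperm, 6 sperm markers summed to 14026 and 20770 in sperm and at most 17.0 in any other library, and 6 blastocyst markers summed to 10156 and 37333 in blastocysts. Of 8 cumulus cell markers only Ptgs2 had a transcript, with at most 0.481 TPM outside sperm. The rest have no value, which says nothing of their expression, so cumulus cells were checked by this gene alone. Sperm replicate 1 also held 12144 TPM of epididymal and leukocyte markers, against 2194 in replicate 2. The 2-cell libraries differed most from each other (r = 0.761 over 14400 genes, against 0.972 at the 4-cell stage). Replicate 2 held 1255 TPM of the oocyte markers and 447 of the 2-cell markers, and replicate 1 held 107 and 26.2. The 2-cell marker sum of replicate 1 lay below those of both 1-cell libraries (46.8 and 39.7) and near the 4-cell ones (20.3 and 24.5). Tcstv1 held most of the 1-cell sums (38.3 and 22.5 TPM, against 3.63). Zscan4c, Zscan4d, Usp17lc and Tcstv3 were higher in replicate 1 than in either 1-cell library. The sum thus does not settle the 2-cell label of replicate 1. Steps to and from that stage include this replicate. TPM keeps no read depth, so the precision behind single values is unknown here. The paper lists the total sequences of each library, with more for the second 2-cell replicate than for the first. No source says that the duplicates come from separate animals beyond being 2 batches. The p-values therefore measure the spread between these libraries.

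The levels of the genes took several courses. Mos, Wee2, Fbxo43, Bub1b and Aurkc were abundant in the oocyte and lower in the blastocyst, each past the test. Aurka was higher in the blastocyst, and Plk1 and Cdc20 were present at every embryonic stage with no call between oocyte and blastocyst. The paper pooled counted oocytes or embryos of a stage, and sperm in bulk. TPM is relative to the library total, so a lower value need not mean less RNA of the gene in each cell. Changes in the RNA total, in poly(A) tails or in the mix of cells were not tested.

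**Figure D1:**
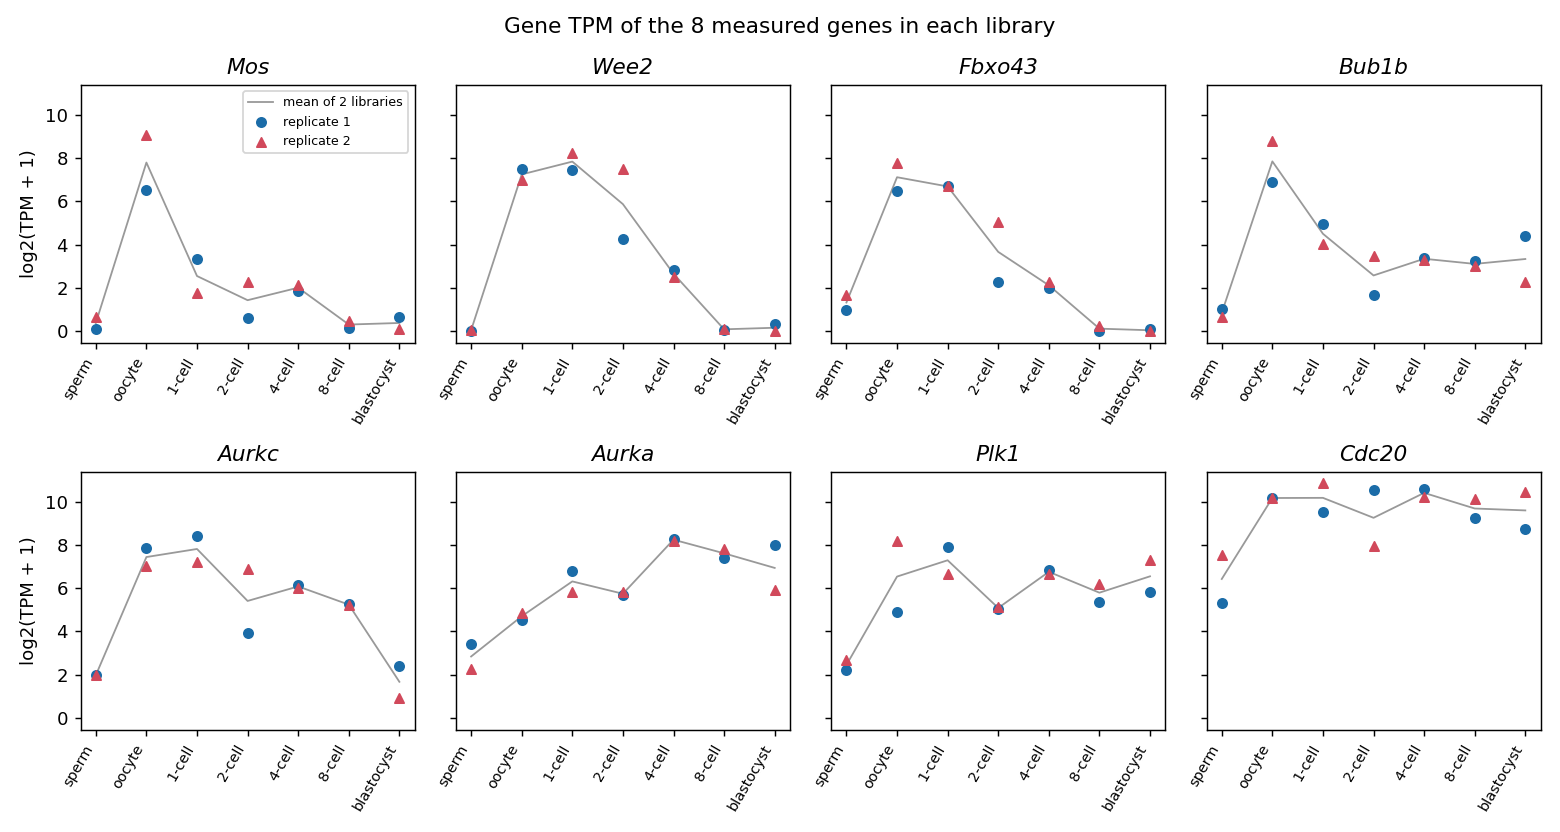
Gene values of the 8 measured genes on the log2(TPM + 1) scale, by stage from sperm to blastocyst. Circles are replicate 1, triangles replicate 2, and the line joins the means of the 2 libraries. Mos peaks at 89.9 and 543 TPM in the oocyte, Wee2, Fbxo43 and Aurkc hold at least 102 TPM in both 1-cell libraries, and the lowest oocyte or embryo value of Cdc20 is 248 TPM.

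Each stage was set against the next with limma, on the log2(TPM + 1) scale, and a gene was called at a Benjamini-Hochberg adjusted p under 0.05 over all 13468 genes tested (14400 where sperm entered). In the first step, oocyte to 1-cell, 1 of the 8 genes was called, Mos, beside 2.90% of all genes, and lower calls made up 0.104% of all genes. In the second step, to the 2-cell stage, 1 of 8 was called, Fbxo43, beside 29.9% of all genes (4.57% lower). In the steps to the 4-cell stage, the 8-cell stage and the blastocyst none of the 8 was called, beside 2.64%, 3.75% and 1.99% of all genes. At an unadjusted p under 0.05 limma gave 2, 2 and 1 of the 8 in these steps, beside 22.7%, 15.9% and 13.1% of all genes, so the counts lie near the share of all genes. Between oocyte and blastocyst 6 of 8 were called, 5 lower and 1 higher, beside 46.3% of all genes (16.6% lower and 29.8% higher). Between sperm and oocyte 7 of 8 were called, all higher in the oocyte, beside 51.0% of all genes, or 15.5% counting higher calls alone.

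The median of all genes moved too, by 0.20 on the log2 scale in the first step, 0.84 in the step to the 2-cell stage, -0.00 in that to the 4-cell stage, -0.39 in that to the 8-cell stage, -0.25 in that to the blastocyst and 0.75 between oocyte and blastocyst. The medians over the 8 genes were 0.19, -1.95, 0.72, -0.90, -0.00 and -5.14 in the same order. The values of the groups did not overlap for 3, 5, 4, 8, 1 and 6 of the 8 genes in these comparisons, beside 35.5%, 59.7%, 50.5%, 67.2%, 46.8% and 72.6% of all genes. Between sperm and oocyte they did not overlap for 8 of 8, beside 74.6% of all genes.

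**Figure D2:**
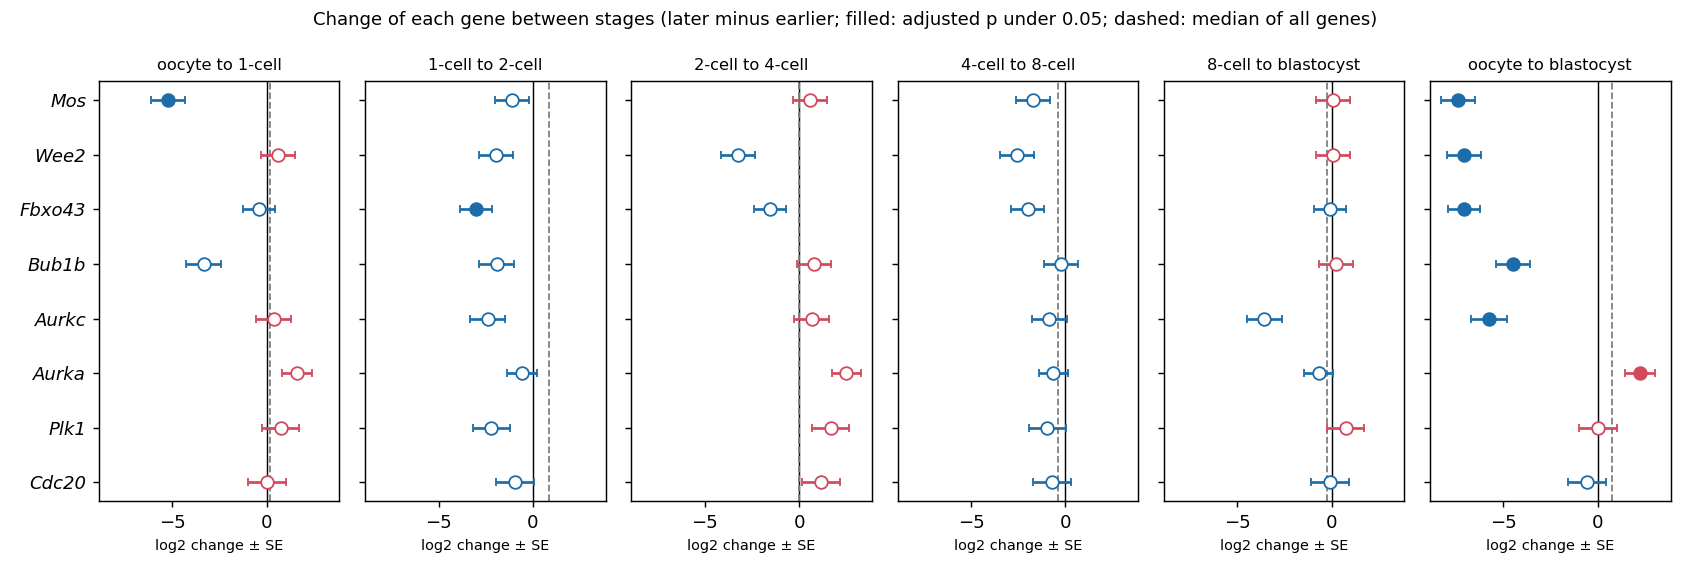
Log2 change (later minus earlier stage) of each gene in 6 comparisons, with the standard error from limma. Filled points were called, open points were not, blue is lower and red is higher, and the dashed line is the median of all genes. Mos stands at -5.25 in the first panel, and in the last panel 5 genes lie between -7.42 and -4.51 while Aurka lies at 2.24.

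Mos, the kinase that starts the cytostatic MAP kinase cascade, lies at chr4:3870657-3872105 on the minus strand and has a single annotated exon. The oocyte libraries held 89.9 and 543 TPM, a spread of several fold. In 1-cell embryos the values were 8.99 and 2.43. Both embryo values lay far below both oocyte values. Later libraries held 0.521 and 3.78 TPM (2-cell), 2.67 and 3.41 (4-cell), 0.113 and 0.371 (8-cell) and 0.571 and 0.0741 (blastocyst), and sperm held 0.0757 and 0.562. All stages after the oocyte therefore overlapped their neighbours in the order of levels. In the order of development, however, the 4-cell and 8-cell values did not overlap.

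From oocyte to 1-cell Mos fell by 5.25 on the log2 scale (SE 0.894, limma adjusted p = 0.00555), a change of 38.0-fold on that scale, and it was 1 of 14 genes called lower. Over the whole interval it fell by 7.42 (adjusted p = 4.61e-05). Without oocyte replicate 2, the higher of the pair, the first change was -3.96 with an adjusted p of 0.0687, and without 1-cell replicate 1 or 2 the adjusted p was 0.0565 and 0.0784. A fit on the 4 libraries of the 2 stages alone gave 0.374. Over the same step none of the 6 oocyte markers was called by limma, and their summed TPM in 1-cell embryos was 2539 and 2009. The oocyte library with more Mos also held the higher sum of these markers (16143 against 5063 TPM). Most of that sum was Gdf9 (15568 against 4176 TPM). The markers Oosp1 (249 against 653) and Zp2 (11.2 against 26.0) were lower in that library, and the others were higher. The part of this in the Mos values was not tested. From 1-cell to 2-cell Mos changed by -1.12 (adjusted p = 0.368), and this was called after quantile normalization (-2.40, adjusted p = 0.0178). From 4-cell to 8-cell Mos changed by -1.70 (adjusted p = 0.388). This change was called in the fit on 4 libraries (0.0163) and with a spread weighted by stage (0.00733). Those settings called 3301 and 4600 of all genes in this step, against 505 in the main fit.

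Wee2, the oocyte form of the kinase that keeps Cdk1 phosphorylated, lies at chr6:40439088-40466813 on the plus strand. Its levels overlapped between the first 2 stages: the oocyte libraries held 182 and 125 TPM and the 1-cell libraries 173 and 301. The 2-cell libraries split, with 18.1 and 179 TPM. At the 4-cell stage 6.03 and 4.65 TPM were left, and the 8-cell (0.0413 and 0.0792), blastocyst (0.243 and listed at 0) and sperm (0.0197 and 0.0470) libraries were all under 0.3 TPM. The order 1-cell, oocyte, 2-cell had overlapping neighbours, and the 4-cell values stood apart on both sides.

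No single step was called for Wee2. The change was -1.97 from 1-cell to 2-cell (adjusted p = 0.116) and -3.22 from 2-cell to 4-cell (adjusted p = 0.0682). Without 2-cell replicate 2 the first step was -3.59 (adjusted p = 0.00286), and without 2-cell replicate 1 the second was -4.84 (adjusted p = 0.00528), so the step at which Wee2 was called lower depended on which 2-cell library was left out. After quantile normalization the change from 2-cell to 4-cell was called (-3.87, adjusted p = 0.0223). Over the whole interval from oocyte to blastocyst Wee2 fell by 7.09 on the log2 scale (SE 0.900, adjusted p = 6.55e-05). The 2-cell library with more Wee2 also held more of the oocyte markers (1255 against 107 TPM), and the part of this in the Wee2 values was not tested. In the step to the 8-cell stage the change was -2.57 (adjusted p = 0.158), and it was called without 2-cell replicate 1 (0.0150) or 2 (0.0144), with a pseudocount of 0.1 (0.0139), in the fit on 4 libraries (0.00936) and with a spread weighted by stage (0.000149). Wee1, the relative of Wee2 in somatic cells, named after its values were seen, was listed at 0 and at 0.180 TPM in oocytes and held 9.31 and 5.18 in blastocysts (2.88, adjusted p = 0.00211).

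Fbxo43, the APC/C inhibitor of the metaphase II arrest, lies at chr15:36150060-36164884 on the minus strand. Oocytes held 88.4 and 215 TPM and 1-cell embryos 102 and 102. These ranges overlapped. In 2-cell embryos 3.85 and 32.2 TPM were left, and in 4-cell embryos 2.96 and 3.77. The 8-cell (listed at 0 and 0.173) and blastocyst (0.0569 and listed at 0) libraries were below sperm, at 1.00 and 2.14.

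Fbxo43 fell by 3.03 from 1-cell to 2-cell (SE 0.853, limma adjusted p = 0.0177), a step in which the median of all genes was 0.84. That call was lost without 1-cell replicate 1 (adjusted p = 0.0810), 1-cell replicate 2 (0.0896) or 2-cell replicate 1 (-1.64, adjusted p = 0.0924), with a spread weighted by stage (0.0568) and in the fit on 4 libraries (0.150). Without 2-cell replicate 1 the call came instead in the step to the 4-cell stage (-2.93, adjusted p = 0.0233). The fall of 7.08 from oocyte to blastocyst (adjusted p = 4.61e-05) was called without each library in turn. In the step to the 8-cell stage Fbxo43 changed by -2.004 (limma adjusted p = 0.265) and was not called. A pseudocount of 0.1 called this step (-4.38, adjusted p = 0.0304). So did the fit on 4 libraries (0.012) and the spread weighted by stage (0.000844). The remaining settings did not call it. The related inhibitor Fbxo5 (Emi1), picked out after its values were seen, held 387 and 320 TPM in oocytes and 42.1 and 87.3 in blastocysts, a fall of 2.52 (adjusted p = 0.0172).

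Cdc25b, the phosphatase that removes the inhibitory phosphate from Cdk1 at meiotic resumption, lies at chr2:131186949-131198497 on the plus strand. Neither the merged annotation nor the transcripts of any of the 7 pools overlapped it, so it has no value here, which says nothing of its expression. Its relatives did have values. Cdc25c rose from 1.95 and 0.345 TPM at the 1-cell stage to 20.9 and 101 at the 2-cell stage (log2 change 4.57, SE 0.919, adjusted p = 0.00283). Cdc25a, named after its values were seen, held 134 and 58.8 TPM in oocytes and 17.3 and 12.5 in blastocysts (-2.51, adjusted p = 0.0168).

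Bub1b, the checkpoint kinase-like protein that binds Cdc20, lies at chr2:118598211-118641591 on the plus strand. Oocytes held 118 and 447 TPM and 1-cell embryos 30.03 and 15.5. The later stages held 2.23 and 9.98 (2-cell), 9.42 and 8.93 (4-cell), 8.34 and 6.97 (8-cell) and 19.9 and 3.88 TPM (blastocyst), against 1.06 and 0.569 in sperm. The oocyte values stood apart from all others. The 1-cell values stood apart from the 4-cell stage, the next in the order of mean log2 levels, but overlapped those of the blastocyst. The later stages overlapped their neighbours in that order, apart from sperm.

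The change of Bub1b from oocyte to 1-cell was -3.35 (SE 0.909, adjusted p = 0.0789) and was not called. It was called after quantile normalization (adjusted p = 0.0263), with a spread weighted by stage (0.0293) and without either 2-cell library (0.0431 and 0.0434). From 1-cell to 2-cell the change was -1.93 (adjusted p = 0.126), and it was called after quantile normalization (-3.14, adjusted p = 0.0059). Over the whole interval Bub1b fell by 4.51 (adjusted p = 0.00143). Its paralog Bub1, another gene picked out after its values were seen, moved the other way, from 1.88 and 2.00 TPM in oocytes to 25.6 and 12.3 in blastocysts (2.68, adjusted p = 0.0206).

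Cdc20, the APC/C activator needed for anaphase, lies at chr4:118432901-118437352 on the minus strand and was the most abundant of the 8 genes in every library. Its values were 1145 and 1153 TPM in oocytes, 726 and 1836 at the 1-cell, 1491 and 248 at the 2-cell, 1524 and 1205 at the 4-cell, 599 and 1124 at the 8-cell and 424 and 1403 at the blastocyst stage. Sperm held 38.4 and 186 TPM. In 4-cell replicate 1 Cdc20 ranked 60 from the top of all genes and loci. The 2-cell libraries again split, here with replicate 1 the higher.

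No step between oocyte and blastocyst was called for Cdc20, and the whole interval gave -0.57 (SE 1.01, adjusted p = 0.658). From sperm to oocyte Cdc20 rose by 3.74 (adjusted p = 0.0108), and without sperm replicate 1, which held the most epididymal and leukocyte marker TPM, the change was 2.62 with an adjusted p of 0.136. The fit on 4 libraries gave 0.0665. Almost all of the gene value came from the annotated transcript, 1143 and 1150 TPM in oocytes.

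Aurkc, the Aurora kinase of germ cells, which sits with the chromosomal passenger complex, lies at chr7:6995300-7003091 on the plus strand. Oocytes held 229.8 and 129 TPM and 1-cell embryos 339 and 147. Later values were 14.3 and 117 (2-cell), 70.3 and 63.1 (4-cell), 37.8 and 35.8 (8-cell) and 4.31 and 0.904 TPM (blastocyst), and sperm held 2.93 and 2.91. Only the 8-cell values and the oocyte values stood clear of the next stage down.

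Aurkc fell by 5.77 from oocyte to blastocyst (SE 0.930, adjusted p = 0.000331). The steps 1-cell to 2-cell (-2.40, adjusted p = 0.0677) and 8-cell to blastocyst (-3.57, adjusted p = 0.0726) were not called. Without 2-cell replicate 2 the first was -3.87 (adjusted p = 0.00607), and without 2-cell replicate 1 or 2 the second had an adjusted p of 0.0139 and 0.0138. After quantile normalization both steps were called (-2.84, adjusted p = 0.0248, and -3.31, adjusted p = 0.0498). The second was also called with a spread weighted by stage (0.0177). Aurkb, the Aurora kinase of this complex in somatic cells, named after its values were seen, went from 2.26 and 2.07 TPM in oocytes to 33.5 and 34.0 in blastocysts (3.46, adjusted p = 0.0015). It rose already from 1-cell (11.05 and 2.68) to 2-cell (61.9 and 44.3), by 3.00 (adjusted p = 0.00674).

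Aurka, the Aurora kinase of spindle poles, lies at chr2:172356190-172370535 on the minus strand and was the only one of the 8 called higher in the blastocyst. Sperm held 9.84 and 3.72 TPM, oocytes 22.4 and 27.8, 1-cell embryos 109 and 56.2 and 2-cell embryos 49.7 and 55.4. The top was the 4-cell stage with 312 and 291 TPM. The 8-cell libraries held 167 and 226 and the blastocysts 250.2 and 58.6, which overlapped. Each oocyte value lay below every embryo value.

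From oocyte to blastocyst Aurka rose by 2.24 (SE 0.775, adjusted p = 0.0304), a change of 4.71-fold beside the median of 0.75 over all genes. Without blastocyst replicate 1, the higher of the pair, the change was 1.199 with an adjusted p of 0.261. The call was also lost without oocyte replicate 1 (0.0960) or 2 (0.0594), 4-cell replicate 1 (0.0531) or 2 (0.0529) or 8-cell replicate 2 (0.0502), after quantile normalization (1.70, adjusted p = 0.0677), with a spread weighted by stage (0.0528) and in the fit on 4 libraries (0.119). The change from 2-cell to 4-cell was 2.50 (SE 0.775, adjusted p = 0.0888), with both 4-cell values far above both 2-cell values, and it was called after quantile normalization (0.0341).

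Plk1, the Polo-like kinase of mitotic entry, spindle poles and kinetochores, lies at chr7:122159439-122169873 on the plus strand. Oocytes held 28.4 and 292 TPM, so that the lowest and the highest oocyte or embryo values of the gene came from the same stage. The 1-cell (240.3 and 100.3), 4-cell (114 and 100.3), 8-cell (40.5 and 72.7) and blastocyst (54.8 and 156) libraries all lay inside that range. The 2-cell libraries agreed at 32.3 and 33.5, and sperm held 3.62 and 5.45. No step was called, but without oocyte replicate 1 or 2 the change of -2.20 in the step to the 2-cell stage was (adjusted p = 0.0385 and 0.0382). After quantile normalization the step to the 2-cell stage was called too (-2.98, adjusted p = 0.0355). The change over the whole interval was 0.01 (SE 0.988, adjusted p = 0.999), and it turned to -0.27 after quantile normalization. From sperm to oocyte Plk1 rose by 4.09 (adjusted p = 0.00274), with an adjusted p of 0.0646 in the fit on 4 libraries.

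The other calls against sperm were of the following sizes. Mos was higher in the oocyte by 7.42, Wee2 by 7.20, Bub1b by 7.00, Fbxo43 by 5.79 and Aurkc by 5.47, with limma adjusted p-values from 1.19e-05 for Mos to 0.000212 for Aurkc. Aurka gave 1.86 (adjusted p = 0.0685), and was called without sperm replicate 1 (0.0406), without blastocyst replicate 1 (0.0455) or 2 (0.0464) and after quantile normalization (0.0110).

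Long reads resolved the structures. The pools held 3 transcripts of these genes in sperm, 14 in oocytes, 12 at the 1-cell stage, then 11, 8 and 10 at the next 3 stages and 6 in blastocysts. Mos was seen in the oocyte pool only, Wee2 in the oocyte, 1-cell and 2-cell pools and Fbxo43 in the oocyte and 2-cell pools, while Cdc20 was seen in all 7 and Aurka in all 7. Full annotated intron chains were found for Wee2, Fbxo43, Aurka, Aurkc, Plk1 and Cdc20. The only long Bub1b transcript, with 21 exons, came from the oocyte pool and began 5328 bases from the nearest annotated start. The Bub1b transcripts of the 1-cell, 8-cell and blastocyst pools were 3′ pieces of 4, 6 and 7 exons.

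The Aurkc values, of the isoforms and of the gene, depended on the annotation that the reads were assigned to. Its annotated chains of 7 exons were present in 5 pools, from oocyte to 8-cell, yet none was in the merged set, whose 4 Aurkc isoforms all carry another chain. With the annotation of each stage, annotated chains took 166.7 and 83.1 TPM in oocytes, or 88.5% and 75.8% of the gene. They took 214 and 90.3 TPM in 1-cell embryos, 58.8 and 52.3 in 4-cell embryos and 27.1 and 26.1 in 8-cell embryos. In the merged annotation TCONS_00017818, 1 of 3 Aurkc isoforms with 8 exons, held 199.9 and 79.2 TPM at the 1-cell stage. The same chain in the 1-cell annotation was listed at 0 and at 2.1e-05 TPM. In the 4-cell annotation it held 0.00284 and 1.15 TPM, against 50.3 and 50.6 in the merged values.

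**Figure D3:**
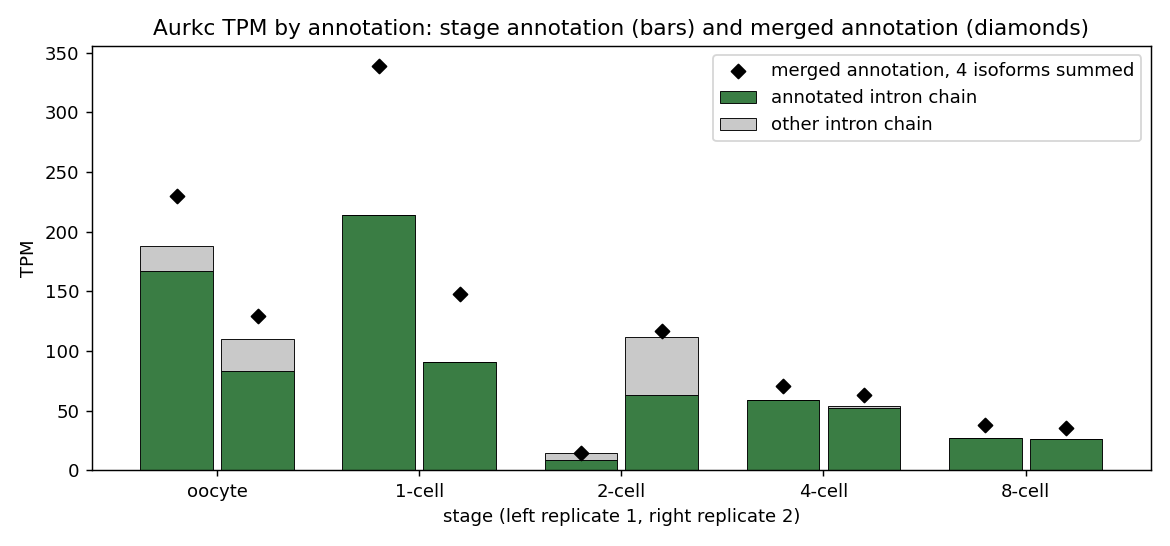
Aurkc TPM in 5 stages, with the left of each pair replicate 1. Bars stack the transcripts of the stage's own annotation by whether their introns are an annotated chain, and diamonds give the 4 merged isoforms summed. Annotated chains make up 57.3% and 56.2% of the bar at the 2-cell stage and at least 75.8% elsewhere.

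Of the 15 merged transcripts 13 passed the filter on low values. The Mos transcript TCONS_00014382 was the 1 of 13 called between oocyte and 1-cell, beside 2.00% of all 20250 transcripts tested, and Aurkc TCONS_00017816 and the Fbxo43 transcript were the 2 of 13 called in the step to the 2-cell stage, beside 28.0%. TCONS_00017816 held 39.6 and 31.2 TPM in 1-cell embryos and was listed at 0 and at 4.46 in 2-cell embryos (-3.95, adjusted p = 0.00306). In the step to the 4-cell stage the lesser Aurka transcript TCONS_00012497, which differs from TCONS_00012498 in its first exon, rose from 2.04 and 2.50 TPM to 45.7 and 34.4 (3.64, adjusted p = 0.0449), 1 of 13 beside 2.63% of all transcripts. The leading Aurka transcript went from 47.7 and 52.9 to 266.6 and 257 TPM. The Aurka isoform call was lost under a pseudocount of 0.1, without a filter, in the fit on 4 libraries, with a replicate block and with a spread weighted by stage, and without 1-cell replicate 1 or 2, 4-cell replicate 1 or 2 or 8-cell replicate 1 or 2. None of the 13 was called in the step to the 8-cell stage, beside 3.13%, and 1, Aurkc TCONS_00017818, in the step to the blastocyst, beside 2.11% (-3.83, adjusted p = 0.0482). That call was lost without any 1 of 10 libraries, all but the 2-cell pair, and with no filter on low values, in the fit on 4 libraries and with a replicate block. Between oocyte and blastocyst 10 of 13 were called, both Aurka transcripts higher and 8 lower, beside 43.0%, and between sperm and oocyte 10 of 13, beside 45.8%.

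The unannotated introns described here are those of Aurkc and Cdc20. The sequences around those of Aurkc are shown because their first and last bases can be compared with the GT and AG of ordinary introns. They are read from GENCODE vM21 transcripts (GRCm38), with the first or last 2 intron bases in capitals. In Aurkc introns of 135, 92 and 112 bases, at chr7:6995526-6995660, chr7:6995524-6995615 and chr7:6995549-6995660, lay inside an exon of the annotated transcript ENSMUST00000207711. The 135-base and 112-base introns begin at annotated intron starts. All 3 begin with GT and end with AG.
Aurkc 135-base intron, start: tagtggattaccagtGTgtgtgtcccgtgt
Aurkc 92-base intron, start: gctagtggattaccaGTgtgtgtgtcccgt
Aurkc 92-base intron, end: cctacccttttccAGgatctaagcaactag
Aurkc 112-base intron, start: cccgtgtgtccctggGTgggtgagacattc
Aurkc 135-base and 112-base introns, shared end: ccctcacctctttAGagttcagggaagagt

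In Cdc20 the new intron, chr4:118436609-118436694, differed from an annotated intron of 87 bases by only 2 bases at one end and 1 at the other, and its transcript held at most 9.15 TPM in the merged values. The 8-cell pool, however, held only this chain and another unannotated one, so in the 8-cell annotation it took 354 and 655 TPM, against 2.35 and 4.36 in the merged values. Its letters lie in no annotated exon and were not read.

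Sequence motifs were searched at the 3′ ends. Polyadenylation hexamers (AATAAA or ATTAAA, transcript strand, last 40 bases) and the cytoplasmic polyadenylation element (TTTTAT or TTTTAAT, last 150 bases) were searched in GENCODE vM21 sequence up to the long-read end. Where a long read ran up to 25 bases past the annotated end, the annotated end was used. In the leading transcript of each gene a hexamer was found in 7 of 8, beside 71.7% of 9998 leading transcripts. The element was found in 6 of 8, all but Mos and Plk1, beside 22.1%. No match says only that these letters are not in the window. The last 30 bases of the searched sequence are shown with the hexamer in capitals. They stop at the annotated end in Wee2, Cdc20, Plk1 and Aurkc, whose long reads ran 9, 9, 6 and 1 bases past it.
Mos: tttttaggaAATAAAgttaccacgaacttc
Wee2: tgtaAATAAAgattttatcttatccaaaga
Fbxo43: tgttttaAATAAAgaattttcagggttgtt
Bub1b: tgtattttatAATAAAatagtttttgttac
Cdc20: ttttttctAATAAAgttcgtatcttcctta
Aurkc: gatgttaATTAAAactgattattttagcat
Plk1: gctttatatatATTAAAatgtgtacatctc

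The Fbxo43 end, seen in the 2-cell pool, lay 1341 bases before the annotated one, with AATAAA 23 bases upstream of it. The Fbxo43 transcript of the oocyte pool ended 12254 genomic bases before the annotated end, with no hexamer and no element in the windows. Elements are shown with their letters in capitals, 1 for each gene that held any.
Wee2: ttttaacataTTTTAATccagatcattgta
Fbxo43: tttgaaagaaTTTTATtttactatgtcata
Bub1b: tcactgtgtaTTTTATaataaaatagtttt
Cdc20: cctttcttgtTTTTATtttattttttctaa
Aurkc: ttgttttctcTTTTATgaagtgatgttaat
Aurka, long end: aaaggctattTTTTATgttggagttctgtc

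Aurka used 2 ends. Among transcripts with the full Aurka intron chain, 8 ended within 14 bases of the annotated end and 8 ended 195 to 200 bases before it. The short end was seen in 6 of 7 pools and the long end in 6 of 7: the oocyte pool held only the short one and the 1-cell pool only the long one. The short end follows an AATAAA, the long end follows neither hexamer, and the element TTTTAT lies 64 bases before the long end, past the short one. Both ends are shown, the short with its hexamer in capitals.
Aurka, short end: aAATAAAgatttgcatagactttgactttt
Aurka, long end: gttaaatatatatgtataccatctacctgg

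With the annotation of each stage, the short end took all of Aurka in oocytes (19.9 and 27.8 TPM) and none in 1-cell embryos, where the long end took 70.7 and 34.9, since the pool held only 1 of the 2. Where both were annotated, the short end took 37.4% and 37.0% in 2-cell embryos, 3.86% and 12.4% in 4-cell embryos, 3.44% and 7.29% in 8-cell embryos and 13.2% and 12.0% at the blastocyst stage. The 2-cell shares lay above all later ones. In sperm the share was 19.6% and 66.2%, of which the short end held 1.71 and 3.16 TPM. Each stage has its own annotation from 1 pool, so these shares have no test.

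**Figure D4:**
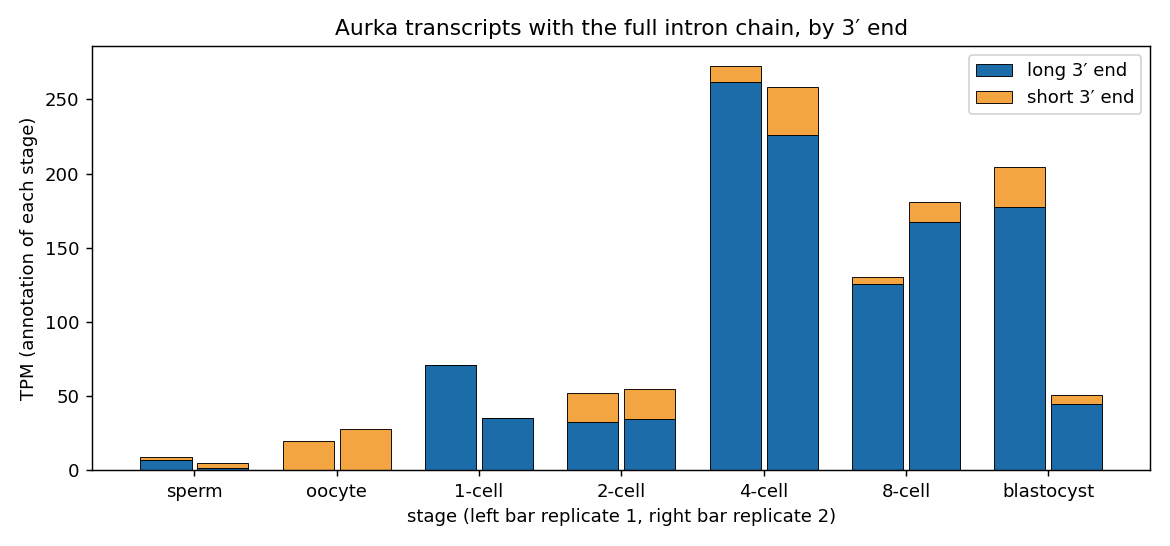
Aurka TPM of transcripts with the full intron chain, stacked by 3′ end, for 7 stages with the left bar replicate 1 and the right bar replicate 2. Oocyte bars hold only the short end and 1-cell bars only the long end, and from the 4-cell stage the short end takes at most 13.2% of each bar.

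RefSeq promoters (GRCm38.p6, 250 bases before to 50 after the start) were matched for 7 of the 9 genes and searched for TTTGAA, the cell cycle homology region bound in G2 and M phase genes, on both strands. It was present in Aurka, Plk1, Bub1b and Cdc20, each time once and on the gene's strand, and not in Wee2, Aurkc or Cdc25b, beside 17.9% of 32851 promoters. It began 18 bases before the start in Cdc20 and 30, 32 and 40 bases after it in Plk1, Aurka and Bub1b. A match is a description of letters, not a bound site. Windows of 30 bases are shown with the motif in capitals.
Cdc20: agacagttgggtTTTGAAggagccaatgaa
Plk1: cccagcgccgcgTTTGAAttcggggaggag
Aurka: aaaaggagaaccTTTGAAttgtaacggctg
Bub1b: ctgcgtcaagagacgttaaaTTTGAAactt

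The rest of the pathway was taken from 9 lists of 71 genes in all, of which 62 were tested (63 where sperm entered). From oocyte to 1-cell 1 of them was called, Tacc3, an Aurka partner at spindle poles, which rose by 4.66 (SE 0.917, adjusted p = 0.0106), beside 2.80% of all genes called higher. In the step to the 2-cell stage 11 rose and 3 fell, beside 25.3% of all genes higher and 4.57% lower. Largest were Cdc25c, then Cdc14b, a phosphatase that counters Cdk1, from 2.07 and 1.61 to 141 and 18.6 TPM (4.22, adjusted p = 0.00518), and Trip13, an ATPase that takes apart checkpoint complexes, from 3.46 and 7.11 to 176 and 24.8 TPM (3.49, adjusted p = 0.0109). The median over the 62 was 0.07, below the 0.84 of all genes. In the next 3 steps limma called none of the 62, and 7, 6 and 5 had an unadjusted p under 0.05, beside 22.7%, 15.9% and 13.1% of all genes.

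From oocyte to blastocyst 19 of the 62 rose and 11 fell, beside 29.8% of all genes higher and 16.6% lower, so both counts lie near the share of all genes. Their median change was 0.67, beside 0.75 over all genes. Cdk1, the kinase of the maturation-promoting factor, went from 0.300 and 0.704 TPM to 188 and 37.7 (5.84, adjusted p = 0.000218). Pde3a, the phosphodiesterase that lowers oocyte cAMP, went from 55.0 and 18.5 TPM to listed at 0 in both (-5.05, adjusted p = 0.000904), and the APC/C subunit Anapc13 rose from 4.41 and 4.92 to 221.5 and 103 (4.75, adjusted p = 0.000716).

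By list, to be read against the same shares, 6 rose and 3 fell of 11 genes of the maturation-promoting factor, 3 rose and none fell of 14 APC/C subunits, 2 rose and 2 fell of 6 APC/C regulators and substrates, and 4 rose and 1 fell of 11 checkpoint genes. In the cytostatic MAP kinase list 1 rose and 1 fell of 5, and both tested genes of the cAMP list fell. In the passenger complex 1 of 6 rose, among Aurka partners and Polo kinases 2 rose and 1 fell of 6, and the 1 tested gene of the calcium list fell. From sperm to oocyte 19 of 63 rose and 10 fell, beside 15.5% of all genes higher and 35.5% lower. The largest changes were those of Mad2l1 (8.19), Pttg1 (7.74) and Ccnb1 (6.63), a checkpoint protein, securin and cyclin B, with adjusted p-values of 9.41e-06, 0.000264 and 5.35e-05.

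**Figure D5:**
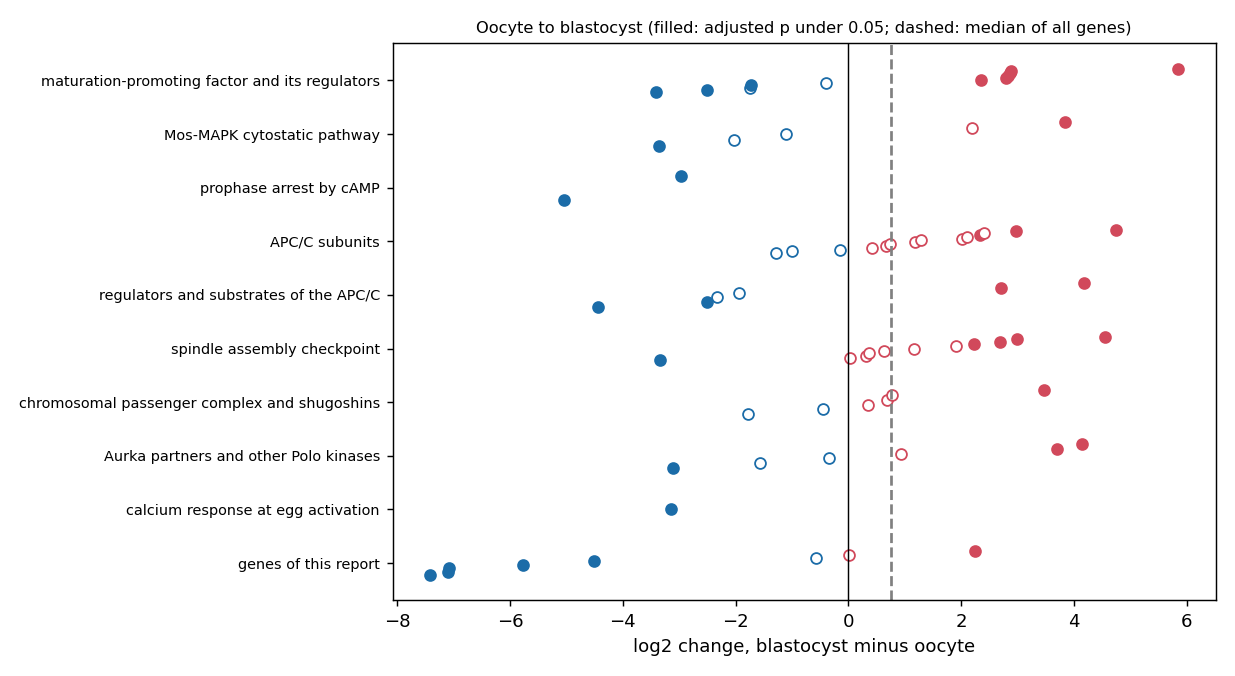
Log2 change from oocyte to blastocyst of each tested gene, by pathway list, with the 8 genes described here in the last row. Filled points were called, and the dashed line is the median of all genes at 0.75. The last row runs from -7.42 to 2.24, and Cdk1 at 5.84 is the point farthest to the right.

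The genes whose course was most like each were found by Pearson r over the 14 libraries, which share stages, among 11423 genes with at least 10 TPM in at least 2 libraries. Wee2 ran with Gm1965 (r = 0.997), Tcl1b1 (0.997) and Gm26996 (0.994), and Fbxo43 with Itga9 (0.988), the unannotated locus XLOC_012533 (0.986) and Arhgap20os (0.985). Mos had its closest matches in Gm49420 (0.934), Mtus2 (0.930) and Zswim3 (0.925) and Bub1b in Lamtor3 (0.954), Epha4 (0.938) and Mcm3ap (0.935). Aurkc ran with Ypel5 (0.958), Cenpn (0.949) and Champ1 (0.945), Aurka with Rad54b (0.961), Eif2b3 (0.961) and Hnrnpc (0.949), Plk1 with Poc1a (0.939) and Srp54a (0.921), and Cdc20 with Ssu72 (0.919), Nfyc (0.905) and Racgap1 (0.899). The highest r of the 8 genes was that of Wee2 and the lowest top r that of Cdc20.

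Near-identical copies limit 3 of the genes. Aurkc has 10 annotated pseudogenes that match it over at least 200 bases at 93.3% to 99.2% identity, and Cdc20 and Plk1 have 1 each at 93.7% and 93.5%. None of these copies had a merged transcript, so any read from one could have been counted on the gene.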

How the data were processed

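The authors amplified cDNA from pooled cells by Smart-seq2 and sequenced it as long reads (7 pools) and as short reads (14 libraries). They aligned to mm10 (the notes name GSNAP, STAR, Cufflinks and Salmon), merged the long-read transcripts of all stages and deposited their exons. The deposited TPM values, computed by the authors with salmon for the merged and for each stage's annotation, are normalized to transcript length and library total.

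Transcripts were assigned to the GENCODE vM21 gene of largest exon overlap on the same strand and their TPM summed. limma 3.58.1 (R 4.3.3) with a trended spread was fitted on log2(TPM + 1) with stage as the only term, over 12 libraries (14 with sperm), for features that reached 1 TPM in 2 or more libraries. A fold on this scale understates the change of low genes. The text names all 9 genes, the 3 pathway genes with the largest called change in each comparison and the 3 genes most like each gene; others are marked, and some items under this rule are not reported here. The genes and lists were chosen with earlier results of these data known. No genome sequence was used: motifs were read from annotated transcripts (blastn 2.17.0 for copies). The 8-cell titles and file names number the replicates oppositely, and the titles were followed. The script was tested on simulated data.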

Additional observations from a re-analysis of the deposited data

How the results depend on the processing

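Each comparison was refitted with a pseudocount of 0.1, with no filter on low values, after quantile normalization, on the 4 libraries of both stages, with a replicate block, with a spread weighted by stage and without each library in turn; the cause of each change was not tested. Depth cannot be read from TPM, and 2 libraries per stage limit each step.

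The main counts of the 8 genes called were 1 (oocyte to 1-cell), 1 (to 2-cell), 0 (to 4-cell), 0 (to 8-cell), 0 (to blastocyst), 6 (oocyte to blastocyst) and 7 (sperm to oocyte). A pseudocount of 0.1 gave 2 in the step to 8-cell. Quantile normalization gave 2, 5 and 2 in the first 3 steps and 1 in the step to blastocyst. It moved the median change of all genes in the step to 2-cell from 0.84 to -0.11. The fit on 4 libraries gave 0 and 0 in the first 2 steps and 3 in the step to 8-cell. The weighted spread gave 2 and 0 in the first 2 steps, 3 in that to 8-cell and 1 in that to blastocyst. The counts over all genes were 391, 4029, 356, 505, 268, 6242 and 7342 in the same order. They moved to 115 (to 4-cell) and 166 (to blastocyst) with the pseudocount of 0.1 and to 1527 and 571 in these steps after quantile normalization. On 4 libraries they were 0 in the first 3 steps and in that to blastocyst, 3301 in that to 8-cell and 4636 between sperm and oocyte. With the weighted spread they were 1873 (to 2-cell), 2 (to 4-cell), 4600 (to 8-cell) and 455 (to blastocyst).

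Isoform calls were 1, 2, 1, 0, 1, 10 and 10 in the same order. They were 0 (oocyte to 1-cell), 0 (to 4-cell) and 1 (to 8-cell) with the pseudocount of 0.1, 0 and 0 (to 4-cell and to blastocyst) with no filter, and 2, 5 and 3 in the first 3 steps after quantile normalization. On 4 libraries they were 0 in the first 3 steps, 2 in that to 8-cell and 0 in that to blastocyst. With the weighted spread they were 2, 1, 0 and 4 in the first 4 steps.

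The replicate block changed no call of the 8 genes, gave 136 and 175 genes in the steps to 4-cell and to blastocyst, and left 0 isoform calls in both. The main fit did not pair the samples by replicate number. Deviations of same-numbered libraries correlated between -0.29 and 0.44 over 7 comparisons, which does not settle whether the numbers pair the samples.

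After quantile normalization the change turned to 0.38 for Bub1b (4-cell to 8-cell), 0.042 for Fbxo43 and 0.084 for Cdc20 (8-cell to blastocyst) and -0.27 for Plk1 (oocyte to blastocyst). None of these was called in either fit.

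Leaving out 1 library moved the count of the 8 genes called between 0 and 2, 0 and 3, 0 and 2, 0 and 1, 0 and 1, 5 and 6, and 7 and 8. Over all genes it lay between 1 and 581, 1897 and 4911, 1 and 1784, 0 and 1273, 10 and 774, 4618 and 7363, and 6016 and 8110. Isoform calls lay between 0 and 1, 1 and 5, 0 and 4, 0 and 0, 0 and 1, 8 and 10, and 8 and 11. Directions that turned without a library were those of changes not called: from oocyte to 1-cell Fbxo43 (-1.06 to 0.21), Aurkc (-0.22 to 0.97), Plk1 (-0.91 to 2.41) and Cdc20 (-0.66 to 0.67); to 2-cell Cdc20 (-2.21 to 0.37); to 4-cell Mos (-0.25 to 1.40), Aurkc (-0.80 to 2.14), Bub1b (-0.11 to 1.65) and Cdc20 (-0.14 to 2.44); to blastocyst Mos (-0.20 to 0.35), Wee2 (-0.084 to 0.23), Fbxo43 (-0.19 to 0.040), Aurka (-1.71 to 0.36), Bub1b (-0.82 to 1.28) and Cdc20 (-0.95 to 0.77); and between oocyte and blastocyst Plk1 (-1.65 to 1.67) and Cdc20 (-1.44 to 0.29).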
